A study of Homo sapiens with 12 samples.

Results

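The comparison described here set spheroids exposed to 1% total parenteral nutrition (TPN) for 24 h against untreated spheroids of the same age, and it used 6 of the 12 libraries of the series. Every gene of the table entered, and 11713 of 16705 genes passed a filter of a mean of 0.5 FPKM over the 12 libraries. FPKM is the number of sequenced fragments of a gene, scaled to the length of its transcript and to all fragments mapped in the library. The question was which genes and pathways respond early, beyond the few genes that changed most. Untreated spheroids received culture medium without TPN, and both groups held the same 2 cell lines in the same serum-containing medium. C3A is 1 clone of the HepG2 hepatoma line and stands in for hepatocytes. LX-2 is an immortalized line of activated hepatic stellate cells, the cells that make matrix in the liver, and fewer LX-2 than C3A cells were seeded. Both groups were on day 4 after seeding when RNA was taken from pooled spheroids. There were 3 libraries per group. Spheroids exposed for 144 h and their untreated controls gave 3 libraries each. They entered the filter and the estimate of spread, and otherwise only the comparison of the 2 exposure times.

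TPN is a solution for feeding by vein that holds amino acids with electrolytes, glucose, a lipid emulsion, trace elements and vitamins. Liver cells meet electrophiles and oxidants with a set of genes that share the transcription factor NRF2, which is held back by KEAP1 and drives enzymes that make glutathione, reduce thioredoxin, supply NADPH and remove quinones and aldehydes. Iron is handled by a separate circuit, in which bone morphogenetic proteins (BMPs) act through SMAD proteins on the gene of hepcidin, the hormone that lowers iron export from cells. Amino acid supply is read by the factor ATF4, glucose by ChREBP, and fatty acids by PPARs, each with its own target genes.

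The 6 libraries were alike in size. Their FPKM summed to between 561657 and 571401, between 11010 and 11029 genes reached 1 FPKM, and the 10 most abundant genes held 8.68% to 9.24% of the sum. Steps between low FPKM values put the depth at 1.81e+07 to 1.85e+07 fragments, so that 0.5 FPKM is about 16 fragments on a transcript of 2000 bases. Correlations of log2(FPKM + 0.1) ran from 0.995 to 0.996 within the groups and from 0.992 to 0.994 between them. Of 21 hepatocyte markers, 20 were tested, and their summed FPKM was 18267 to 18773 in untreated and 17199 to 17315 in exposed libraries. Of 24 markers of stellate cells, 19 were tested, with sums of 1338 to 1414 FPKM in untreated and 1363 to 1409 FPKM in exposed libraries, mostly from FN1, which hepatocytes make as well. The stellate markers PDGFRA, DES, LUM, DCN and POSTN did not pass the filter and reached at most 0.24 FPKM. Of 11 macrophage and blood cell markers, 9 were in the table and 6 of these did not pass the filter, at no more than 0.06 FPKM. The 3 tested summed to 49.1 to 50.4 FPKM in untreated and 53.2 to 58 FPKM in exposed libraries. Most of this was CD68, with means of 46.7 and 52.6 FPKM. Of 12 endothelial and bile duct markers, 10 were in the table, and PECAM1, CDH5, VWF, KDR, STAB2, LYVE1 and KRT7 stayed at or below 0.19 FPKM. The 3 tested, with the bile duct marker KRT19 among them, summed to 334 to 352 FPKM in untreated and 320 to 327 FPKM in exposed libraries. These are bulk RNA values, so fewer cells of a type and less RNA per cell cannot be told apart.

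The response was narrow in size and broad in number. Differentially expressed genes (DEGs) had to pass an adjusted p of 0.05 and to differ by over 0.58 on the log2 scale. They numbered 107 (0.914% of genes tested), of which 75 (0.64%) were higher and 32 (0.273%) lower in exposed spheroids. Without the fold threshold, 1230 genes passed, 590 higher (5.04% of genes tested) and 640 lower (5.46%), together 10.5%. Of these 1230 genes, 1123 (91.3%) stayed below the fold threshold and 828 (67.3%) below 0.3 on the log2 scale, with medians of 0.25 among the higher and -0.22 among the lower genes. Only 30 genes passed 1 on the log2 scale, 22 higher and 8 lower. Over all 11713 genes the median was -0.0045. The share of genes with an adjusted p below 0.05 rose with expression, from 5.24% at a mean of 0.5 to 5 FPKM to 18.6% above 50 FPKM, while the median standard error fell from 0.12 to 0.035 on the log2 scale. The groups did not overlap in 3497 genes (29.9%). Among the 1230 genes with an adjusted p below 0.05 they did not overlap in 1219, so lack of overlap adds little to that call. Below, log2 fold changes are exposed over untreated, on the log2(FPKM + 0.1) scale, ± standard error. The spread behind this error was estimated for each gene over all 4 groups of 3 libraries, those of 144 h included. Adjusted p values are from limma with the Benjamini-Hochberg method over all 11713 genes. "Rose" and "fell" are used for genes with an adjusted p below 0.05. Members of a list are counted against the shares of 5.04% and 5.46% given above. These shares cover all levels of expression, and the share that passed was higher in abundant genes, as given above. Counts at an unadjusted p below 0.05 stand against 2803 of the 11713 genes in either direction. The lists were written with earlier results of these data known.

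**Figure D1:**
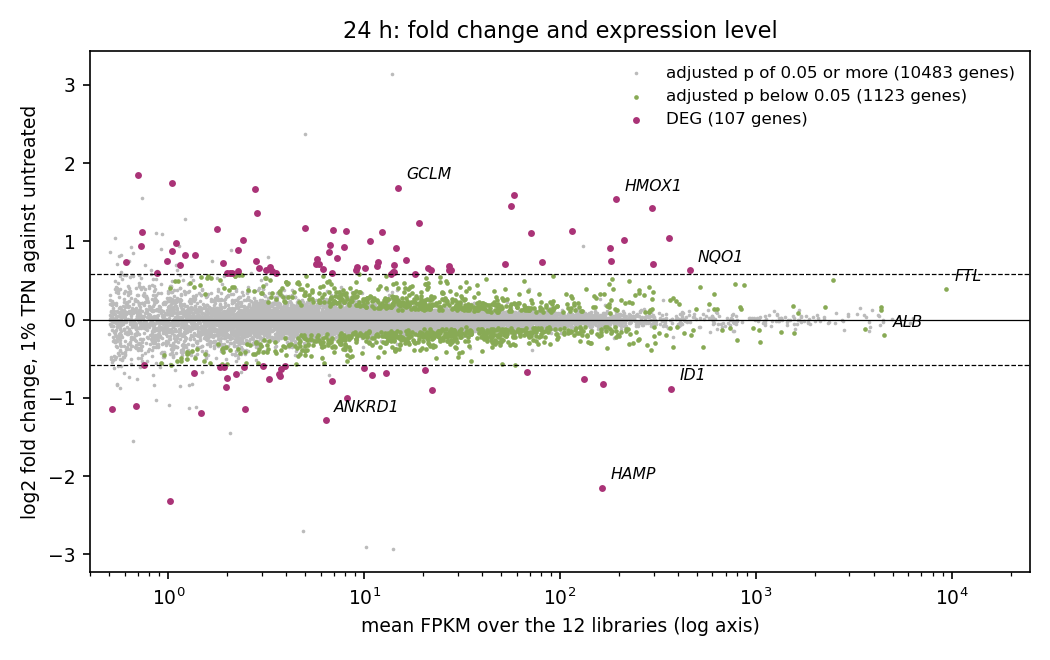
Each point is 1 of 11713 genes, with the mean FPKM over the 12 libraries on a log axis and the log2 fold change at 24 h on the vertical axis. Dashed lines mark 0.58 in either direction. The 107 DEGs lie outside these lines, and the 1123 other genes with an adjusted p below 0.05 lie between them, mostly at a mean above 5 FPKM.

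Genes of glutathione and thioredoxin metabolism rose in part, with log2 fold changes above 1 in GCLM, GCLC, SLC7A11 and SRXN1. Promoters of the genes GCLM, TXNRD1 and GPX2 are shown because they hold the letters TGACNNNGC, the core of the element that NRF2 is known to bind. Each runs from 150 bases before the RefSeq start site to the start base (GRCh38.p14, 5′ to 3′ along the gene, the motif on either strand in capitals). Their places are chr1:93909430-93909580 (minus strand), chr12:104215629-104215779 (plus strand) and chr14:64942745-64942895 (minus strand).
GCLM: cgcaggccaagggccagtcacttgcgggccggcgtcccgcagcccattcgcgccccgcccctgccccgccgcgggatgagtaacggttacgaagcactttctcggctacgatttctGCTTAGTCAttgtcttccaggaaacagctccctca
TXNRD1: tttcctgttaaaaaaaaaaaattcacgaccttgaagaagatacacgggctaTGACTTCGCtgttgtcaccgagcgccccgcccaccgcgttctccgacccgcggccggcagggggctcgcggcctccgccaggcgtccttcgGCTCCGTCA
GPX2: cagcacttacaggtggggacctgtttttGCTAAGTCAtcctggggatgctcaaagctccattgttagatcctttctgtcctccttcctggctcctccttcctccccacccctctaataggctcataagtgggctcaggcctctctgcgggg
The first base of the motif lay 34 bases before the start site in GCLM, 99 and 8 bases before it in TXNRD1 and 122 bases before it in GPX2. In windows of 250 bases before to 50 bases after the start, the motif was in 9 of 46 promoters (19.6%) of the 4 lists for glutathione, thioredoxin, NADPH and detoxification, against 1486 of 9625 promoters (15.4%) of genes tested. Among the members of these lists that rose and had a promoter in the table, 6 of 22 held it. These shares are a description of letters and not of binding.

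GCLM, the regulatory subunit of the enzyme that starts glutathione synthesis, stood at 7.14, 7.53 and 7.83 FPKM without TPN and 25.6, 23.7 and 23.8 FPKM with it. All exposed libraries were above all untreated ones, by 3.25 times on average (log2 fold change 1.69 ± 0.079, adjusted p = 9.94e-09). Its catalytic partner GCLC had 34.1, 34.6 and 36.3 FPKM in untreated and 75.6, 73.9 and 77.5 FPKM in exposed spheroids, again without overlap (1.11 ± 0.03, adjusted p = 3.63e-11). SLC7A11, the transporter that brings in cystine for glutathione, was low but rose to a similar degree, with 4.84, 5.99 and 6.55 FPKM in the untreated and 12.1, 12.2 and 14.1 FPKM in the exposed libraries (1.14 ± 0.11, adjusted p = 1.89e-05). GSR, which reduces oxidized glutathione, rose by 0.56 on the log2 scale, whereas the glutathione peroxidase GPX2 rose by 0.20 only. In all, 7 of 15 members tested of the glutathione list rose and none fell, with a median log2 fold change of 0.082. At an unadjusted p below 0.05 the counts were 7 and 2, and 1 fell by adjusted p without the untreated library 1 or the exposed library 3 of 144 h. The 8 others, 7 of them negative, had values from -0.19 upward and did not pass the test.

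In the thioredoxin system 6 of 13 members rose and none fell (median 0.057). SRXN1, which repairs overoxidized peroxiredoxins, had 67.7, 67.1 and 70.5 FPKM without TPN and 148, 149.8 and 154 FPKM with it (1.14 ± 0.037, adjusted p = 2.5e-10). TXNRD1, the cytosolic thioredoxin reductase, had 114, 114 and 113 FPKM in untreated and 214, 209.6 and 218 FPKM in exposed spheroids, with the untreated libraries within 1 FPKM of each other (0.91 ± 0.026, adjusted p = 4.45e-11). TXN itself rose by 0.35 and the peroxiredoxin PRDX1 by 0.14. TXNIP, which binds thioredoxin and is also induced by glucose, was among the 6 (0.45 ± 0.032). Of 11 genes that supply NADPH, 4 rose and 3 fell. TKT, TALDO1 and PGD of the pentose phosphate pathway rose by 0.38, 0.33 and 0.24, and IDH2, NNT and MTHFD1 of the mitochondrial and folate routes fell, at -0.18, -0.17 and -0.11 on the log2 scale. The adjusted p of MTHFD1, 0.0347, was 0.0547 to 0.124 without any 1 of the 6 libraries.

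Detoxifying reductases formed the list with the highest share of rising members, 10 of 19, with none lower (1 without the untreated library 3, and 3 at an unadjusted p below 0.05) and a median of 0.26. AKR1B10, a reductase of aldehydes and retinal, had 171, 188 and 162 FPKM in the untreated and 461, 459.8 and 484 FPKM in the exposed libraries (1.43 ± 0.054, adjusted p = 9.65e-10). AKR1C2 had 22.4, 26.8 and 22.3 FPKM without TPN and 67.3, 63.7 and 64.8 FPKM with it, and the exposed libraries lay far above the untreated ones (1.45 ± 0.069, adjusted p = 1.05e-08). AKR1C1 and AKR1C3 rose by 1.04 and 0.49, but the AKR1C genes are close copies of each other and the counting could divide their fragments unequally. PTGR1, which reduces enals, rose from 8.65 to 20.5 FPKM on average (1.24 ± 0.083, adjusted p = 3.78e-07). NQO1, the quinone reductase, was already abundant, at 439, 434 and 435 FPKM in untreated and 678, 664 and 688 FPKM in exposed spheroids (0.63 ± 0.028, adjusted p = 5.52e-09). EPHX1, ALDH1A1 and ALDH3A2 rose by 0.33, 0.31 and 0.22. The list does not hold all reductases. A reductase gene outside it was among the 8 largest losses in FPKM, from a mean of 839 to 660 FPKM (-0.35 ± 0.041, adjusted p = 9.52e-05).

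**Figure D2:**
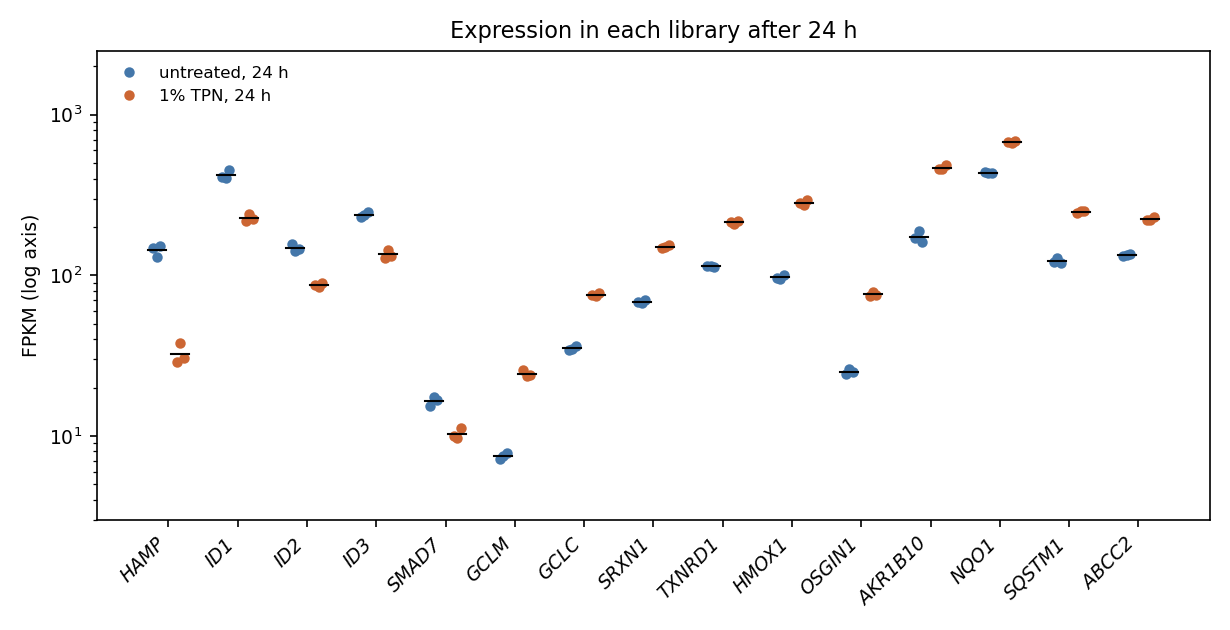
FPKM of 15 genes in each of the 6 libraries on a log axis, with untreated libraries in blue, exposed libraries in orange and the mean of 3 libraries as a black bar. In none of these genes do the groups overlap, and HAMP shows the widest gap, from 130.3 to 152 FPKM in untreated and from 28.9 to 37.8 FPKM in exposed libraries.

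OSGIN1, a growth inhibitor known to be induced by oxidative stress, belonged to no list and stood at 24.1, 26.2 and 24.9 FPKM in the untreated and 74.1, 78.5 and 75.2 FPKM in the exposed libraries (1.59 ± 0.044, adjusted p = 3.63e-11). Among NRF2 and its regulators, 5 of 12 genes rose and 1 fell. SQSTM1, the autophagy receptor that binds KEAP1, had 121, 128 and 119 FPKM without TPN and 243, 252 and 253 FPKM with it (1.02 ± 0.036, adjusted p = 4.48e-10). KEAP1, MAFG and BACH1 rose by 0.29, 0.31 and 0.28. NFE2L2, which encodes NRF2 itself, was the member that fell, with 97.5, 97 and 97.7 FPKM in untreated and 78.8, 77.2 and 79.5 FPKM in exposed spheroids (-0.31 ± 0.031, adjusted p = 1.95e-05). Of 11 export pumps, 5 rose and 2 fell, and the 2 were 0 or 1 without any 1 of the 6 libraries. ABCC2, which moves glutathione and glucuronide conjugates into bile, had 132, 133 and 136 FPKM in the untreated and 222, 220.5 and 231 FPKM in the exposed libraries (0.74 ± 0.036, adjusted p = 1.29e-08). ABCC3 and ABCG2 rose by 0.48 and 0.45. Of 24 conjugating enzymes, 4 rose and 2 fell (1 without the untreated library 3 or the exposed library 1 or 2), with UGDH, which makes the glucuronide donor, at 0.52 and the oestrogen sulfotransferase SULT1E1 at -0.61.

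Heme and iron genes moved with the redox genes only in part. HMOX1, which opens the heme ring and frees its iron (chr22:35381096-35394207, GRCh38.p13), stood at 95.5, 95.1 and 101 FPKM without TPN and 282, 273 and 294 FPKM with it (1.54 ± 0.041, adjusted p = 3.63e-11). In the list for heme synthesis and breakdown, 5 of 16 members rose and 2 fell (0 or 1 without any 1 of the 6 libraries of 24 h, the 3 untreated ones of 144 h or the exposed library 1 of 144 h), and the median was 0.0082. FECH, the last enzyme of heme synthesis, had 8.02, 7.99 and 8.18 FPKM in untreated and 12.5, 12.9 and 13.3 FPKM in exposed spheroids (0.67 ± 0.054, adjusted p = 2.34e-06), while the first enzyme ALAS1 rose by 0.23. Ferritin is the shell that stores iron. Its light chain FTL was the most abundant gene to rise and showed the largest gain in FPKM, with 9998, 9658 and 9661 FPKM in the untreated and 12561, 12841 and 12974 FPKM in the exposed libraries (0.39 ± 0.028, adjusted p = 1.03e-06). Quantile normalization, which gives the most abundant gene of each library 1 common value, left it with an adjusted p of 1. Its heavy chain FTH1 had 1867, 1806 and 1808 FPKM without TPN and 2549, 2602 and 2621 FPKM with it (0.50 ± 0.027, adjusted p = 2.9e-08). SLC40A1, the iron exporter ferroportin, rose by 0.36, and the carrier protein TF fell by 0.19 on the log2 scale. The transferrin receptors TFRC and TFR2 had log2 fold changes of 0.053 and -0.12 and did not pass the test. Of 18 iron genes, 4 rose and 2 fell.

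The hepcidin gene had the lowest log2 fold change of the 32 DEGs that fell, apart from the histone gene H2AC15, which was near the limit of detection. HAMP (chr19:35282528-35285143, GRCh38.p13) is shown with the 150 bases before its RefSeq start and the start base (chr19:35282378-35282528, plus strand, GRCh38.p14), with the letters GGCGCC, a core of the element that SMAD proteins are known to bind, in capitals.
HAMP: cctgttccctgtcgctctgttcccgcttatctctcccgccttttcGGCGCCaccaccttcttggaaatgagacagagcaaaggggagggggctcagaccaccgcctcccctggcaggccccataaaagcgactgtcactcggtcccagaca
The motif began 105 bases before the start site. It was in 8 of 21 promoters (38.1%) of the BMP and SMAD list and in 2971 of 9625 promoters (30.9%) of genes tested, and among the 8 members of this list that fell, HAMP and BAMBI held it.

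HAMP stood at 147, 130.3 and 152 FPKM in untreated and 28.9, 37.8 and 30.5 FPKM in exposed spheroids. Exposed libraries thus kept 0.227 of the untreated level, with no overlap (log2 fold change -2.15 ± 0.10, adjusted p = 8.56e-09). ID1, ID2 and ID3, inhibitors of basic helix-loop-helix factors and direct targets of BMP signalling, fell together. ID1 had 412, 401 and 453 FPKM in the untreated and 219, 242 and 225 FPKM in the exposed libraries (-0.88 ± 0.046, adjusted p = 2.81e-08). ID3 had 232, 237 and 248 FPKM without TPN and 128, 144 and 132 FPKM with it (-0.83 ± 0.042, adjusted p = 2.51e-08). ID2 had 156, 141 and 146 FPKM in untreated and 87.2, 84.2 and 89.5 FPKM in exposed spheroids (-0.76 ± 0.036, adjusted p = 9.94e-09). In each of the 3 genes the exposed libraries were close together and below the untreated ones. The inhibitory SMAD7 and SMAD6, which are induced by the pathway and feed back on it, fell, at -0.68 and -0.55 on the log2 scale, and SMAD9 and the decoy receptor BAMBI fell, at -0.37 and -0.29. BMP6, the ligand that raises hepcidin in the liver, was near the limit of detection, at 0.28, 0.32 and 0.26 FPKM in the untreated and 0.54, 0.5 and 0.37 FPKM in the exposed libraries (0.55 ± 0.14, adjusted p = 0.0187), and that call was lost without some libraries (0.0518 without the untreated library 1, 0.0648 without the untreated library 3, 0.0791 without the exposed library 1 and 0.0648 without the exposed library 2). Its mean over the libraries of 24 h, 0.378 FPKM, lay below the filter of 0.5 FPKM, and it was tested only because of its level at 144 h. The ligand BMP4 did not pass the test, at 129, 132 and 135 FPKM without TPN and 130.4, 132 and 132 FPKM with it (-0.0063 ± 0.027). The signal carriers SMAD1, SMAD4 and SMAD5 had log2 fold changes of 0.0071, -0.052 and -0.014, and none passed the test, nor did the receptors BMPR1A, BMPR2 and ACVR1. Across the 22 members tested of 30, 1 (BMP6) rose and 8 fell, with a median of -0.15. The 8 that fell were HAMP, the 3 ID genes, SMAD6, SMAD7, SMAD9 and BAMBI.

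Targets of TGF-beta and of the growth regulator YAP fell in part, 6 of 17, while 2 rose. ANKRD1, a target of YAP, had 7.21, 7.1 and 7.34 FPKM in untreated and 2.48, 3.44 and 2.89 FPKM in exposed spheroids (-1.28 ± 0.12, adjusted p = 1.31e-05). SKIL, a feedback inhibitor of SMAD signalling, had 4.37, 4.46 and 4.31 FPKM in the untreated and 2.88, 2.79 and 2.96 FPKM in the exposed libraries (-0.59 ± 0.068, adjusted p = 7.5e-05). The matrix protein gene TGFBI and AMOTL2 fell, at -0.31 and -0.28. TGIF1 rose by 0.35, and CCN2 did not pass the test (0.064 ± 0.036). FSTL3, which binds activin and is outside the list, fell from 9.74 to 4.81 FPKM (-1.01 ± 0.078, adjusted p = 1.92e-06). Of the DEGs that fell most, PAQR8, a membrane progesterone receptor, had 29.5, 29.1 and 29.4 FPKM without TPN and 15.2, 15.7 and 16 FPKM with it (-0.90 ± 0.047, adjusted p = 2.81e-08).

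**Figure D3:**
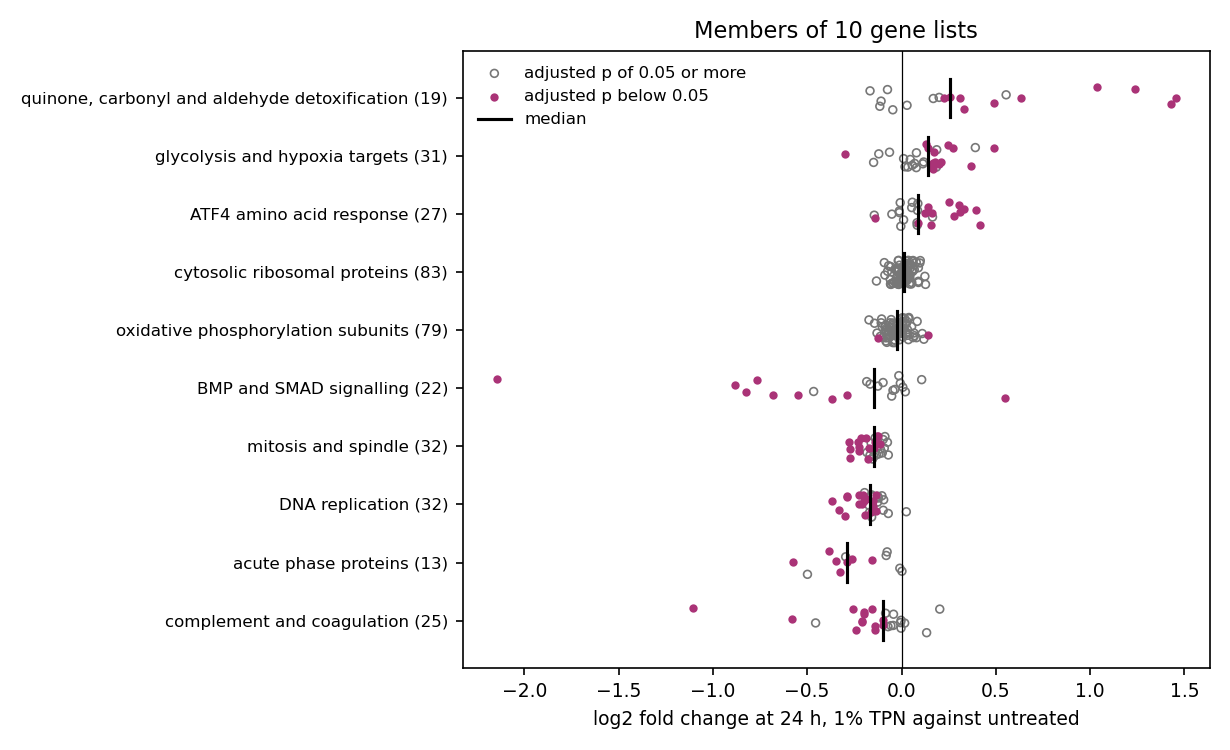
Log2 fold changes of the members of 10 gene lists, with the number tested in brackets, filled points for an adjusted p below 0.05 and a black bar at the list's median. Detoxification genes reach 1.45 to the right, HAMP lies at -2.15 to the left, and the members for DNA replication and mitosis lie in a narrow band below 0, while ribosomal proteins stay close to 0.

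DNA replication had the highest share of falling members among the lists given here, each with a small change. Of 32 genes, 18 fell and none rose, and 31 had a negative log2 fold change (median -0.17, against -0.0045 over all genes tested). At an unadjusted p below 0.05, 27 were lower and 0 higher. None of them reached the threshold for a DEG. MCM3, a part of the replicative helicase, had 183, 186 and 188 FPKM in untreated and 151, 150 and 152 FPKM in exposed spheroids (-0.30 ± 0.023, adjusted p = 1.77e-06). PCNA, the sliding clamp, had 422, 424 and 418 FPKM in the untreated and 367, 368 and 359 FPKM in the exposed libraries (-0.21 ± 0.027, adjusted p = 0.000202). In both genes the libraries within a group differed by less than the gap between the groups. TYMS and RRM1, which supply deoxynucleotides, fell, at -0.19 and -0.20. In the list for mitosis and the spindle, 15 of 32 fell, none rose and all 32 were negative (median -0.15), with 26 lower and 0 higher at an unadjusted p below 0.05. NUSAP1, TOP2A and KIF20A fell, at -0.27, -0.23 and -0.23. The count for mitosis was 9 without the untreated library 1, 9 without the untreated library 2, 9 without the exposed library 1 and 8 without the exposed library 2. CCND1, a D cyclin, fell by 0.29 (adjusted p = 1.63e-05).

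Plasma proteins of hepatocytes were lower as well. Of 13 acute phase genes tested, 7 fell and none rose, with a median of -0.29, the lowest of the lists given here, and 9 were lower and 0 higher at an unadjusted p below 0.05. FGB, the fibrinogen beta chain, had 61.2, 61.1 and 59.7 FPKM without TPN and 42, 40.01 and 40.1 FPKM with it (-0.58 ± 0.038, adjusted p = 3.5e-07). The alpha and gamma chains FGA and FGG fell, at -0.38 and -0.32, and so all 3 fibrinogen genes were lower. SERPINA3, HP and A2M fell, at -0.26, -0.34 and -0.29. Of 25 complement and coagulation genes, 13 fell and none rose (median -0.10), but 8 fell without the exposed library 3, and at an unadjusted p below 0.05 the counts were 15 and 1. CPB2, SERPINF2 and CFB fell, at -0.26, -0.21 and -0.20. KNG1, the kininogen gene, fell at a low level, from a mean of 1 to 0.407 FPKM (-1.11 ± 0.20, adjusted p = 0.00231). Of 20 hepatocyte markers, 8 fell and 1 rose. ALB, serum albumin, showed the largest loss in FPKM, with 4460, 4526 and 4191 FPKM in untreated and 3807, 3835 and 3847 FPKM in exposed spheroids (-0.20 ± 0.044, adjusted p = 0.0104). TTR had 389, 379 and 369.5 FPKM in the untreated and 309, 308 and 278 FPKM in the exposed libraries (-0.35 ± 0.044, adjusted p = 0.000194). The hepatocyte factors CEBPA and FOXA1 fell, at -0.32 and -0.35, whereas HNF4A did not pass the test (-0.053 ± 0.028). AHSG, another abundant plasma protein, was at 0.056 ± 0.035 and did not pass either, so plasma protein genes did not all move. The summed level of the hepatocyte markers was lower in all exposed than in all untreated libraries, as given above. That sum holds ALB and TTR themselves, so it is not a separate measure of hepatocyte content. A part of hepatocyte content in the falls of single plasma protein genes was not tested. The list of keratins, cadherins and junction genes had 6 of 15 lower and none higher, with KRT23 and KRT19 at -0.40 and -0.25. It does not hold all junction genes. In the KEGG tight junction pathway, 11 of 123 genes (8.94%) rose and 13 (10.6%) fell. CLDN4, which is outside the list, was among those that rose.

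**Figure D4:**
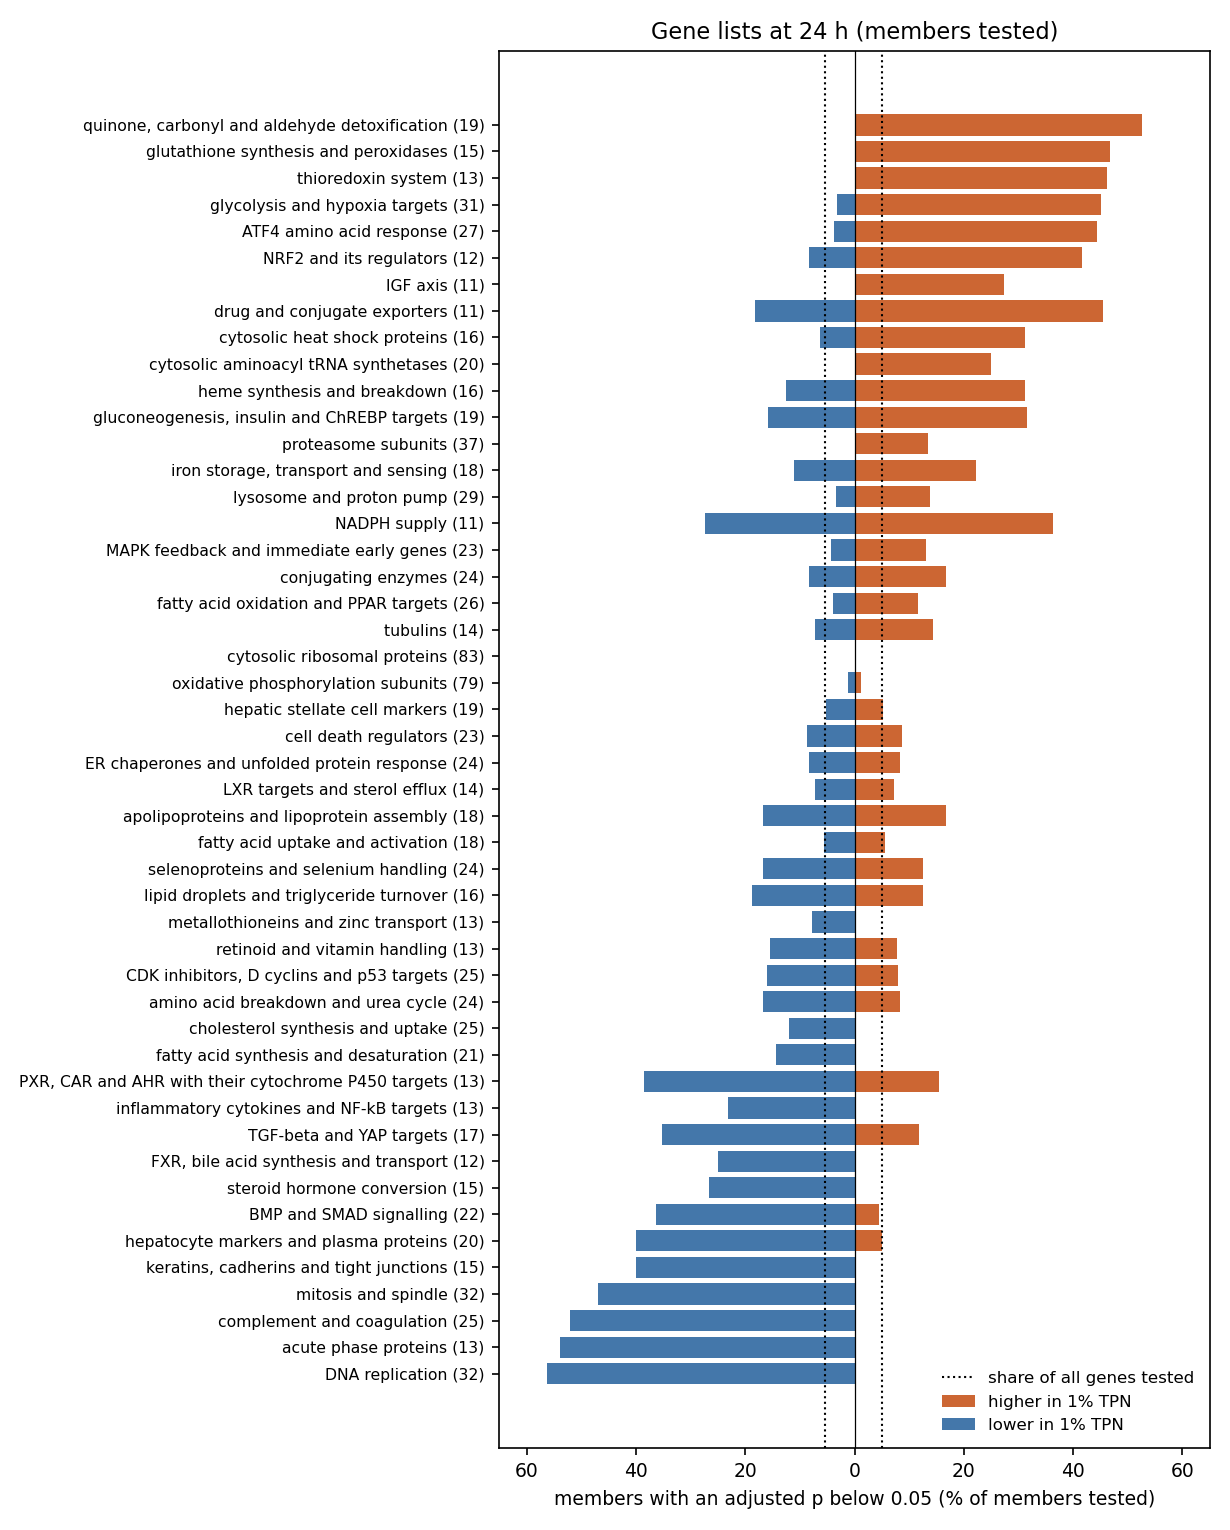
Share of tested members with an adjusted p below 0.05 in the 48 gene lists with at least 10 members tested, higher in exposed spheroids to the right in orange and lower to the left in blue. Dotted lines give the shares over all genes tested, 5.04% and 5.46%. Redox, glycolysis and ATF4 lists lie at the top, DNA replication and plasma protein lists at the bottom, and ribosomal and oxidative phosphorylation lists near 0 on both sides. The 12 lists not described in the text had 0 to 4 members higher and 0 to 4 lower.

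Glucose genes rose by small amounts. Of 31 genes of glycolysis and hypoxia, 14 rose and 1 fell, with a median of 0.14 and 27 positive values, but 9 rose without the untreated library 3 and 8 without the exposed library 2. The glycolytic enzymes ENO1, GAPDH and ALDOA were among the 8 largest gains in FPKM of genes that rose, with means of 3476 FPKM without and 3888 FPKM with TPN for ENO1 (0.16 ± 0.026) and 1832 and 2047 FPKM for ALDOA (0.16 ± 0.029). GAPDH had 0.13 ± 0.03 (adjusted p = 0.0146), but the adjusted p was 0.0522 without the untreated library 3 and 0.0672 without the exposed library 2. GPI and the glucose transporter SLC2A1 rose by 0.25 and 0.21, and the hypoxia target CA9 by 0.49, whereas the transporter SLC2A3 fell by 0.30 on the log2 scale. Among genes of gluconeogenesis, insulin and ChREBP, 6 of 19 rose and 3 fell. ARRDC4, a ChREBP target and relative of TXNIP, had 2.43, 2.54 and 3.02 FPKM without TPN and 4.17, 4.44 and 4.56 FPKM with it (0.71 ± 0.074, adjusted p = 2.95e-05). GCKR, the regulator of glucokinase, had 8.82, 10.1 and 9.03 FPKM in untreated and 13.9, 14.9 and 13.9 FPKM in exposed spheroids (0.61 ± 0.064, adjusted p = 3.43e-05). IGFBP1 rose by 0.41, and the transporter SLC2A2 and the factor FOXO1 fell, at -0.30 and -0.32.

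SPP1, which encodes the secreted protein osteopontin and is in none of the lists, was another of these 8, with 620.2, 679.8 and 634 FPKM in the untreated and 878, 889.6 and 874 FPKM in the exposed libraries (0.45 ± 0.037, adjusted p = 3.27e-06).

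Lipid genes split. PLIN2, the coat protein of lipid droplets, had 418, 385 and 375 FPKM without TPN and 526, 548 and 534 FPKM with it (0.45 ± 0.036, adjusted p = 2.22e-06). CIDEC, which fuses droplets, rose by 0.54, and DGAT2 and LIPC, which build and cleave triglyceride, fell, at -0.34 and -0.26, so that the list of 16 droplet genes held 2 that rose and 3 that fell. CPT1A, the gate of fatty acid oxidation in mitochondria, had 15.2, 16.4 and 17.2 FPKM in untreated and 20.7, 22.9 and 21.6 FPKM in exposed spheroids (0.42 ± 0.049, adjusted p = 0.0001). It was 1 of 3 that rose among 26 genes of fatty acid oxidation and PPARs, with 1 that fell (0 without the untreated library 3 or the exposed library 1 or 3) and a median of -0.02. ANGPTL8, an inhibitor of lipoprotein lipase, had 132, 130.1 and 117 FPKM in the untreated and 198, 232 and 191 FPKM in the exposed libraries (0.71 ± 0.064, adjusted p = 8.3e-06). Of 25 genes of cholesterol synthesis and uptake, 3 fell (HMGCS1 and ACAT2 among them, at -0.26 and -0.19) and none rose, and 22 were negative (median -0.082). At an unadjusted p below 0.05, 12 were lower, and 5 or 6 passed by adjusted p with libraries scaled to equal totals, with only the libraries of 24 h or with trends in length and GC removed. Of 21 genes of fatty acid synthesis, 3 fell and none rose, SREBF1 among them at -0.21. Of 18 genes of apolipoproteins and lipoprotein assembly, 3 rose (1 without the untreated library 1 or the exposed library 2) and 3 fell (1 without the exposed library 3). The bile acid receptor NR1H4 (FXR) had 15.5, 13 and 15.1 FPKM without TPN and 10.3, 10.7 and 11.6 FPKM with it (-0.41 ± 0.077, adjusted p = 0.00363), and 3 of 12 genes of its list fell (5 with only the libraries of 24 h) and none rose (1 without the exposed library 3). CYP7A1, the first enzyme of bile acid synthesis, was at or below 0.02 FPKM in every library of 24 h.

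Of 13 genes of the xenobiotic receptors and their cytochrome P450 targets, 5 fell and 2 rose. Without the exposed library 1 the count of lower genes was 3, and without the untreated library 1 or 2 or the exposed library 2 or 3 the count of higher genes was 1. CYP3A7, the fetal member of its family, had 4.19, 5.08 and 4.02 FPKM in untreated and 1.98, 1.92 and 1.94 FPKM in exposed spheroids (-1.14 ± 0.12, adjusted p = 2.67e-05). CYP1A1 had 7.96, 7.72 and 9.24 FPKM in the untreated and 5.52, 6.25 and 6.16 FPKM in the exposed libraries (-0.47 ± 0.087, adjusted p = 0.00344), and the receptor gene NR1I2 (PXR) rose by 0.30. CYP3A7 has near copies in its gene cluster, so its fragments may be divided with them.

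Amino acid genes under ATF4 rose by small amounts, 12 of 27, while 1 fell (median 0.087). ASNS, asparagine synthetase, had 25, 22.7 and 23.9 FPKM without TPN and 30.5, 32.7 and 31 FPKM with it (0.40 ± 0.041, adjusted p = 2.96e-05). TRIB3 had 103, 107 and 104 FPKM in untreated and 132, 133 and 129.6 FPKM in exposed spheroids, with a gap wider than the spread in either group (0.33 ± 0.031, adjusted p = 9.9e-06). GDF15, a secreted stress signal, rose by 0.42, the glutamine transporter SLC1A5 by 0.28 and ATF4 itself by 0.14. Of 20 cytosolic tRNA synthetases, 5 rose and none fell, led by HARS1 and GARS1 at 0.28 and 0.20, but 3 rose without the untreated library 2. The unfolded protein response, a neighbour of ATF4, showed 2 of 24 higher and 2 lower, with its chaperone HSPA5 at -0.088 ± 0.03 and not past the test. The first count was 0 without the untreated library 2 or 3 or the exposed library 2 and 1 without the exposed library 1 of either time, and the second was 1 without the untreated library 1 or 3 or the exposed library 1 or 3. Heat shock proteins of the cytosol had 5 of 16 higher and 1 lower, which was 0 without any 1 of the 6 libraries, the untreated library 2 of 144 h or the exposed library 1 of 144 h. The count of 5 was 2 without the untreated library 1 and 3 without the untreated library 3, the exposed library 1 or the exposed library 2. BAG3, their cochaperone, rose by 0.26.

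The large complexes changed little. None of 83 cytosolic ribosomal protein genes passed the test (median 0.011) with limma, against 4 at an unadjusted p below 0.05. By adjusted p, 1 passed without the exposed library 3, and the alternatives gave up to 3 higher (with trends in length and GC removed) and 1 lower (with quantile normalization). Of 79 subunits of oxidative phosphorylation, 1 rose and 1 fell (median -0.022). The first count was 0 without the untreated library 1 or 2 or the exposed library 1 or 2, and the second ranged from 0 (without the untreated library 1 or the exposed library 1) to 2 (without the exposed library 3 of 144 h) and 3 (without the untreated library 2), and was 4 with libraries scaled to equal totals. Proteasome subunits had 5 of 37 higher and none lower, led by PSMD11 at 0.25, and that count was 2 or 3 without the untreated library 1, 2 or 3 or the exposed library 2 or 3. Stellate cell markers had 1 higher (LOX, 0.20) and 1 lower (ACTA2, -0.29) of 19, and the collagen genes COL1A1 and COL3A1 did not pass the test, at -0.004 ± 0.14 and -0.19 ± 0.18. In the list of inflammatory cytokines and NF-kB targets, 3 of 13 fell and none rose, with TNFAIP3 and NFKBIA, both inhibitors of NF-kB, at -0.31 and -0.29. IL6, IL1B and TNF did not pass the filter. Among immediate early genes and feedback genes of MAPK, 3 of 23 rose, MYC and FOSL1 among them at 0.22 and 0.35, and JUNB fell by 0.47.

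KEGG annotation in the table gave another grouping. Of 315 pathways with at least 15 genes tested, the highest share of rising genes was in ferroptosis, 10 of 35 (28.6%), against 5.9% of the 5065 annotated genes tested. Those 10 included GCLC, GCLM, HMOX1, SLC7A11, FTH1, FTL and SLC40A1, which the lists above hold too, and the spermidine acetyltransferase SAT1, which they do not (0.34 ± 0.028, adjusted p = 3.51e-06). Pentose phosphate genes followed with 6 of 24 (25%) and arginine and proline metabolism with 9 of 40 (22.5%), the latter with ODC1, the first enzyme of polyamine synthesis, at 0.21 ± 0.033. Antifolate resistance (5 of 23, 21.7%), pentose and glucuronate interconversions (4 of 19, 21.1%) and fructose and mannose metabolism (6 of 29, 20.7%) came next. The highest share of falling genes was in complement and coagulation, 22 of 53 (41.5%), against 6.77% of annotated genes. DNA replication had 11 of 35 (31.4%), mismatch repair and the Hippo pathway for multiple species 6 of 22 each (27.3%) and retinol metabolism 7 of 26 (26.9%). The pathway named for Staphylococcus aureus infection had 9 of 25 (36%), and the 9 were complement, fibrinogen and keratin genes with DEFB1. Pathways share genes, and these shares carry no test.

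Several of the largest folds sat at low levels and are less certain. TIAF1 had 0.23, 0.23 and 0.4 FPKM in the untreated and 1.3, 1.47 and 1.06 FPKM in the exposed libraries (1.85 ± 0.34, adjusted p = 0.00344). It lies inside MYO18A, whose log2 fold change was 0.014 ± 0.041, fragments of overlapping genes can be assigned to either, and RefSeq lists TIAF1 as another name of MYO18A. TRIM54, a muscle ubiquitin ligase, had 0.51, 0.48 and 0.43 FPKM without TPN and 1.93, 1.83 and 1.71 FPKM with it (1.75 ± 0.15, adjusted p = 5.12e-06), and P2RY6, a receptor for uridine nucleotides, had 1.65, 1.79 and 1.76 FPKM in untreated and 4.77, 4.59 and 4.47 FPKM in exposed spheroids (1.36 ± 0.12, adjusted p = 4.05e-06). SNCG spread widely among untreated libraries, with 1.29, 0.7 and 0.22 FPKM in the untreated and 2.24, 2.1 and 2.15 FPKM in the exposed libraries (1.68 ± 0.39, adjusted p = 0.0135). TSACC had 2.5, 2.19 and 2.84 FPKM without TPN and 0.79, 1.24 and 1.13 FPKM with it (-1.19 ± 0.30, adjusted p = 0.0224), and its adjusted p was 0.0614 without the untreated library 1, 0.0806 without the untreated library 3 and 0.093 without the exposed library 1. The read-through gene MSANTD3-TMEFF1 fell (-0.86 ± 0.21, adjusted p = 0.0192), with an adjusted p of 0.0529 without the untreated library 2, 0.0688 without the untreated library 3 and 0.0717 without the exposed library 1. Its neighbour MSANTD3, with which it shares exons, had a log2 fold change of 0.45 ± 0.05.

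After 144 h, 93 of the 107 DEGs of 24 h had an adjusted p below 0.05 in the same direction, where 52.5% of all genes tested had one in either direction. Another 3 passed in the opposite direction and 11 did not pass. Exposed and untreated libraries of 144 h share no library with those of 24 h. The spread of each gene was estimated over both times, however, so the calls at the 2 times are not fully separate. The difference between the 2 fold changes passed an adjusted p below 0.05 and 0.58 on the log2 scale in 37 of the 107 DEGs. In 8 of the 37 the change was larger at 24 h. Both thresholds were met by 687 of the full set of 11713 genes, a share of 5.87%. HAMP had -2.15 at 24 h and -2.56 at 144 h, a difference of -0.41 (adjusted p = 0.0382) that did not reach 0.58, and OSGIN1 had 1.59 and 1.77. PTGR1 went from 1.24 to 3.11 (difference 1.87, adjusted p = 2.49e-07) and AKR1B10 from 1.43 to 2.26 (difference 0.83, adjusted p = 5.9e-06). ID1 had the smaller fall at 144 h, -0.56 against -0.88 (difference 0.32, adjusted p = 0.00231).

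**Figure D5:**
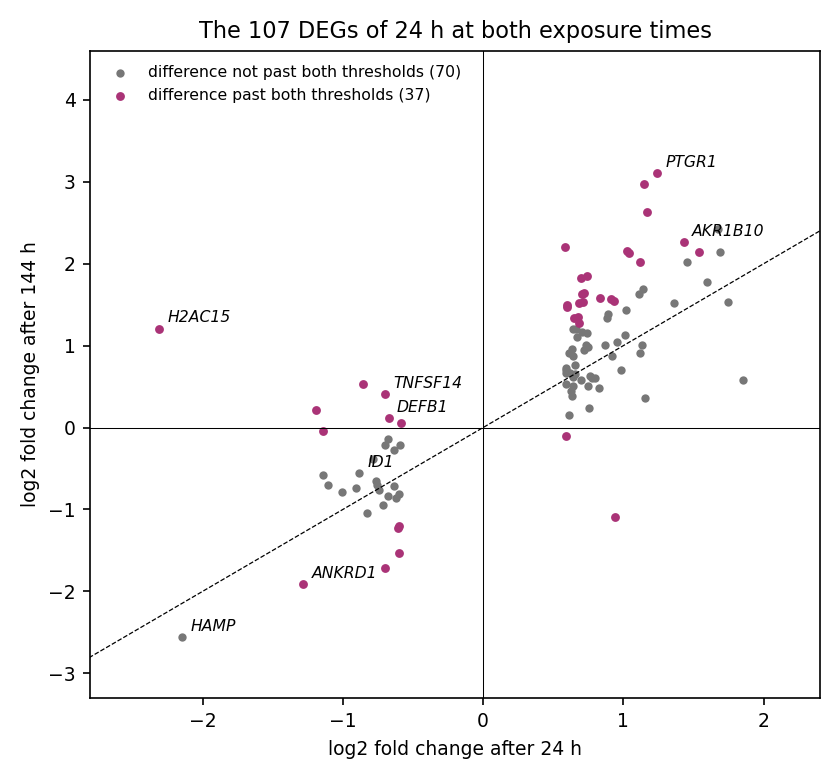
Log2 fold changes of the 107 DEGs of 24 h after 24 h on the horizontal axis and after 144 h on the vertical axis, with equality as a dashed line and magenta for the 37 genes whose difference passed both thresholds. Most DEGs that rose lie above the dashed line, with PTGR1 at 3.11 after 144 h, and DEFB1 and TNFSF14 lie near or above 0 after falling at 24 h.

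Some falls were seen at 24 h and not at 144 h. Of the 8 DEGs larger at 24 h, TNFSF14, a TNF family ligand, had 1.81, 1.81 and 1.52 FPKM in untreated and 1.16, 1.16 and 0.77 FPKM in exposed spheroids (-0.70 ± 0.15, adjusted p = 0.00743) and 0.41 after 144 h (difference 1.11, adjusted p = 0.00136). NRP2, a coreceptor of semaphorins and VEGF, had 0.75, 1.05 and 0.63 FPKM in the untreated and 0.38, 0.33 and 0.22 FPKM in the exposed libraries (-1.14 ± 0.22, adjusted p = 0.00382) and -0.045 after 144 h (difference 1.10, adjusted p = 0.0155). DEFB1, an antimicrobial defensin, had 92.4, 90.1 and 88 FPKM without TPN and 50.9, 69.5 and 51 FPKM with it, with the exposed library 2 nearest to the untreated ones (-0.67 ± 0.12, adjusted p = 0.00294), and 0.12 after 144 h. TSACC and MSANTD3-TMEFF1 differed by 1.41 and 1.40 (adjusted p = 0.0243 and 0.0034). The histone gene H2AC15, which has near copies, was low, at 1.42, 0.23 and 0.73 FPKM in untreated and 0.24, 0 and 0 FPKM in exposed spheroids, and its groups overlapped (-2.31 ± 0.56, adjusted p = 0.0164). Like BMP6, it had a mean below the filter at 24 h (0.437 FPKM) and was tested only because of its level at 144 h, as were 141 genes in all, of which 8 passed the test at 24 h. Its adjusted p was 0.0732 without the untreated library 1, 0.056 without the untreated library 3, 0.0686 without the exposed library 2 and 0.068 without the exposed library 3.

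Acute phase genes were lower at 24 h and not at 144 h, where 8 of the 13 rose and none fell, against 24.2% of all genes higher and 28.3% lower at that time (median 0.20 against -0.29). SERPINA3 had -0.26 at 24 h and 1.04 at 144 h (difference 1.30, adjusted p = 9.78e-09), and HP had -0.34 and 1.08 (difference 1.43, adjusted p = 5e-07). For FGB, FGG and FGA the differences were 0.63, 0.72 and 0.61 (adjusted p = 3.38e-06, 1.43e-06 and 3.62e-06). CYP1A1, JUNB and KRT23, which fell at 24 h, had 0.71, 0.47 and 0.46 at 144 h, with differences of 1.18, 0.94 and 0.86 (adjusted p = 1.59e-05, 7.45e-05 and 4.46e-06). In contrast, the cell division genes kept their direction. Of 32 DNA replication genes 31 fell at 144 h, with a median of -0.51, and all 32 genes of mitosis fell, with a median of -0.60. For MCM3 the change went from -0.30 to -0.63 (difference -0.33, adjusted p = 9.93e-06). The ATF4 gene TRIB3 had 0.33 at 24 h and 0.039 at 144 h (difference -0.29, adjusted p = 0.000241), below 0.58 in size.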

How the data were processed

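Strand-specific libraries of 4 groups of 3 were sequenced on DNBSEQ. The deposited values are FPKM per gene, which the authors made with RSEM after filtering reads and mapping with HISAT2 2.0.4 and Bowtie2 2.2.5 against GRCh38.p13 (versions from the submitters' processing notes), 1 column per library, rounded to 2 decimals. No read counts were used here. The authors' own fold changes and p values in the table were not used.

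Genes with a mean of at least 0.5 FPKM were tested with limma 3.58.1 (R 4.3.3) on log2(FPKM + 0.1), with 4 group means, 8 residual degrees of freedom, a trend of variance with expression and Benjamini-Hochberg adjustment. A fold change on this scale understates the change of genes near 0.1 FPKM. DEGs passed an adjusted p of 0.05 and a log2 fold change of 0.58 in size. The study describes its RNA sequencing values as coming from 3 separate experiments. The p values rest on the spread of libraries within groups, estimated over all 4 groups and drawn toward the trend with expression. An exact 2-sided permutation test of 3 against 3 libraries has 20 arrangements and cannot go below 0.1. The fit was tested on simulated data with a spread set in advance. Of 50 genes changed by 0.3 on the log2 scale, 21 passed. At 0.58, 1 and 1.5, 49, 50 and 48 of 50 passed. In the same data 13 genes without a change passed, and with no gene changed 0 passed.

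Named genes were the 10 DEGs with the highest and the 10 with the lowest log2 fold change without overlap and with a mean of at least 1 FPKM, the 8 largest gains and 8 largest losses in FPKM, key members of each list with up to 5 more of lowest adjusted p, and up to 6 DEGs larger at 24 h than at 144 h. BMP6, MTHFD1, EPHX1, SAT1, ODC1, MSANTD3, MYO18A, further members given as not past the test and the DEGs of the closing observations were named after their values were seen. Gene lists and the comparison itself were chosen with earlier results of these data known. Promoters are from RefSeq (GRCh38.p14) and matched 9625 of the genes tested by gene identifier. Pseudocounts, filters, scalings, a replicate block, length and GC correction and each library left out in turn served as alternatives. Some genes are not reported here. Figures were drawn with matplotlib 3.10.9 in Python 3.11.15.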

Additional observations from a re-analysis of the deposited data

Results flagged for a closer look

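The difference between the log2 fold changes at 144 h and at 24 h (the former minus the latter, limma, adjusted p below 0.05 and absolute value above 0.58) drew attention to 40 of the 167 genes tested that are named in the text, with adjusted p up to 0.0243. Of the named genes, 6 were chosen by this same difference, and 5 of the 40 (GPAT3, JAG1, LIF, PIR and MIXL1) are described in the observations that follow and were picked after their values were seen, so the count is a description. It was positive in 32 and negative in 8. Redox and detoxification genes with a larger rise at 144 h were PTGR1 (1.87), AKR1C1 (1.10), ABCC3 (1.00), AKR1B10 (0.83), GPX2 (0.78), TXNRD1 (0.66), HMOX1 (0.60) and PIR (0.59). Iron genes with a larger rise were SLC40A1 (0.83) and FTH1 (0.79). Acute phase genes that fell at 24 h differed in the positive direction, with HP (1.43), SERPINA3 (1.30), FGG (0.72), FGB (0.63) and FGA (0.61). So did other genes that fell at 24 h and were near or above 0 at 144 h, CYP1A1 (1.18), JUNB (0.94), KRT23 (0.86), TNFSF14 (1.11), NRP2 (1.10), DEFB1 (0.79), TSACC (1.41) and MSANTD3-TMEFF1 (1.40). Larger rises at 144 h in genes of signalling, lipid and glucose were those of SPP1 (1.34), GPAT3 (0.90), CIDEC (0.84), ARRDC4 (0.93), JAG1 (0.93), LIF (0.61) and FOSL1 (0.79). Among negative differences, the collagen genes did not pass the test at 24 h and had log2 fold changes of -1.25 and -1.40 at 144 h, with differences of -1.25 for COL1A1 and -1.22 for COL3A1. Larger falls at 144 h were those of MIXL1 (-1.01), TGFBI (-0.68), ACAT2 (-0.64), ANKRD1 (-0.63), SULT1E1 (-0.62) and AMOTL2 (-0.58). BMP6 and H2AC15 had differences of 0.89 and 3.52, but both had a mean below the filter at 24 h and were tested because of their level at 144 h, so a difference between the times was in part built into their choice. Groups of 3 libraries were not searched for single libraries that stand apart.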

How the results depend on the processing

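A pseudocount of 1 gave 58 DEGs (42 higher, 16 lower) and 435 genes with a difference between the exposure times, against 107 (75 and 32) and 687. A mean of at least 5 FPKM, with fewer genes tested, gave 59 DEGs (46 and 13) and 282 differences. Without a filter, 57 DEGs were lower, and above 1 on the log2 scale 30 DEGs were left (22 and 8). Other scalings, pseudocounts and fits, with those named below, gave 101 to 144 DEGs and 1086 to 1487 genes at an adjusted p below 0.05, none of these totals over 1.5 times away. With each library left out in turn, DEGs ran from 102 to 119 (68 to 83 higher, 31 to 37 lower), genes at an adjusted p below 0.05 from 884 to 1269 and differences between times from 647 to 696. Of 150 named genes that passed, 143 passed under every alternative that gave a value, and the other 7 were BMP6, FTL, GAPDH, H2AC15, MSANTD3-TMEFF1, MTHFD1 and TSACC. None reversed. BMP6 lost its call also with a pseudocount of 1 (adjusted p = 0.0786) and with only the libraries of 24 h (0.144). The cause was not tested. Of 1824 counts of members called in the gene lists, 1691 were within 1.5 times the reported count. Those with a library left out are given beside their counts, as are those for cholesterol, FXR, ribosomal and oxidative phosphorylation genes, and the others follow. Rising heat shock genes went from 5 to 3 and rising apolipoprotein genes from 3 to 1 without a filter or without a variance trend. Falling genes of the unfolded protein response went from 2 to 4 with equal totals, quantile normalization or length and GC trends removed, and rising ones from 2 to 0 without a variance trend or with only the libraries of 24 h. Rising proteasome genes went from 5 to 2 without a variance trend, falling cytochrome P450 targets from 5 to 3 at a mean of at least 5 FPKM, and falling heme genes from 2 to 0 without a filter or with only the libraries of 24 h. In the remaining lists such counts moved by 1. Deviations from the group mean in same-numbered untreated and exposed libraries had correlations of 0.091, -0.083 and 0.10 at 24 h. Other pairs of an untreated with an exposed library ran from -0.16 to 0.077. The labels do not say whether a number marks 1 experiment, and these correlations cannot decide it. The replicate block joined same-numbered libraries of each exposure time. The block gave 110 DEGs (75 and 35), 1209 genes at an adjusted p below 0.05 and 668 differences, and MTHFD1 alone of the named genes lost its call (adjusted p = 0.0506). At the depth of these libraries 0.5 FPKM is about 16 fragments, so folds of genes near that level are the least certain.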

Other observations

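Some DEGs belong to none of the gene lists and were chosen for mention here after their values were seen. GPAT3, which makes lysophosphatidic acid on the way to triglyceride, had 5.11, 5.41 and 5.37 FPKM without TPN and 11.2, 12.3 and 11.3 FPKM with it (log2 fold change 1.12 ± 0.065, adjusted p = 7.4e-08, limma). DNAJB4, a cochaperone of the cytosol, had 7.04, 7.84 and 7.47 FPKM in untreated and 14.5, 15.3 and 15.6 FPKM in exposed spheroids (1.01 ± 0.053, adjusted p = 2.81e-08). LIF, a cytokine of the interleukin 6 family, and JAG1, a Notch ligand, rose by 0.93 and 0.72 on the log2 scale. PIR, an iron-binding nuclear protein, and ABHD4, a lipase of N-acyl phospholipids, rose by 0.68 and 0.92. The exposed libraries lay above all untreated ones in each of these 6 genes. CLDN4, a claudin of tight junctions, rose from a mean of 64.2 to 107 FPKM (0.74 ± 0.039, adjusted p = 2.9e-08), while CLDN1 fell by 0.22.

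Among DEGs that fell and are in no list, FURIN, the protease that cleaves many proproteins on their way out of the cell, had 30.6, 32 and 34.1 FPKM in the untreated and 19.7, 21.4 and 21 FPKM in the exposed libraries (-0.64 ± 0.05, adjusted p = 2.03e-06). MIXL1 and FOXJ1, both transcription factors of embryonic and ciliated cells, were low and fell, at -0.70 and -0.70. From a list for retinoids and vitamins, CYP24A1, which breaks down active vitamin D, had 10.6, 9.87 and 13.4 FPKM without TPN and 6.61, 6.43 and 6.27 FPKM with it (-0.79 ± 0.11, adjusted p = 0.000434). Of all DEGs, 12 had a mean below 1 FPKM in both groups of 24 h.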
